A study of Mus musculus with 31 samples.

Results

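Visceral fat from the pad at the epididymis, the epididymal white adipose tissue (eWAT), was compared between the HF and the LF arm of a study of male first-generation (F1) offspring. The members are the 6 eWAT libraries titled HF and the 4 titled LF, 10 of the 31 libraries of the series, and the titles with HFLF were kept apart. All animals of these arms were wild-type C57BL/6 males aged 24 weeks. They received chow from weaning to 6 weeks of age and then the low-fat diet (LFD) for 18 weeks. The diet tag of the labels, HFD or LFD, therefore does not describe what these animals ate. It was read as the arm to which the father's line belonged. The title of the series speaks for this reading, but no label states it. The HFLF arm, tagged HFLFD, had 6 eWAT libraries from animals of the same strain, age and feeding. How many fathers stood behind each arm is not given in the sources used here, so animals of an arm may be siblings.

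White fat cells store energy as triglyceride in a single large lipid droplet. They take up glucose and fatty acids under insulin, make fatty acids and the glycerol backbone of triglyceride from glucose, and release fatty acids again in fasting. The fat pad also holds endothelial cells, preadipocytes, macrophages and lymphocytes, and a covering of mesothelium, and the epididymal pad lies against the epididymis and the testis. The comparison asks whether the RNA of this tissue differed by the paternal arm.

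Levels are read counts relative to the library total (CPM), scaled between libraries by trimmed means of M values (TMM). Values of the LF arm are given in the order LF 2, LF 3, LF 5 and LF 6, and values of the HF arm as the lowest, the median and the highest of the 6 libraries. A difference is a log2 fold change, HF minus LF, with its standard error from edgeR, in a fit over all 16 eWAT libraries. Library totals ran from 9278083 counts (LF 3) to 19771166 (HF 5), so that 3 counts, used as the floor of detection, corresponded to 0.323 CPM in LF 3 and 0.152 in HF 5. The defining markers of fat cells were high in every library. Adipoq, the adipokine adiponectin, stood at 3294, 2647, 4490 and 4791 CPM in LF and at 2958, 3335 and 3802 in HF.

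Several libraries stood apart for transcripts of other tissues and cells. Of 18 listed testis germ cell genes 12 were measured, and their summed level was 33.6 CPM in LF 3, 36.4 in LF 6, 126.5 in HF 2 and 170 in HF 6, against 5.61 and 11.3 in the other LF libraries and 4.05 to 9.13 in the other HF libraries. The protamine Prm2, which packs sperm DNA, had no count in LF 2, HF 3 and HF 4 and reached 45 CPM in HF 6. None of the 23 listed epididymis genes was among the genes measured. Testis transcripts were thus highest in 2 libraries of each arm.

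The summed level of 25 B cell genes was 6913 CPM in LF 2, 2306 in HF 3 and 4192 in HF 5, against 575 to 717 in the other LF libraries and 594 to 881 in the other HF libraries. Ms4a1, the B cell surface protein CD20, stood at 76.9, 3.71, 1.28 and 2.14 CPM in LF and at 0.874, 2.74 and 24.4 in HF. Albumin (Alb), made by hepatocytes, stood at 40.4, 136, 172 and 35.0 CPM in LF and at 11.9, 47.3 and 208 in HF, and was highest in LF 3, LF 5 and HF 5. LF 3 also had the lowest leptin (Lep), 416 CPM, against 1112 to 2446 in the other LF libraries, and the highest Col1a1, a collagen of fibroblasts, 2166 CPM against 318 to 595. In whole tissue, fewer cells of a type and less RNA per cell cannot be told apart. The part of these transcripts in the results below was not tested beyond leaving out the libraries that carried them and fitting the testis and B cell levels as covariates.

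**Figure D1:**
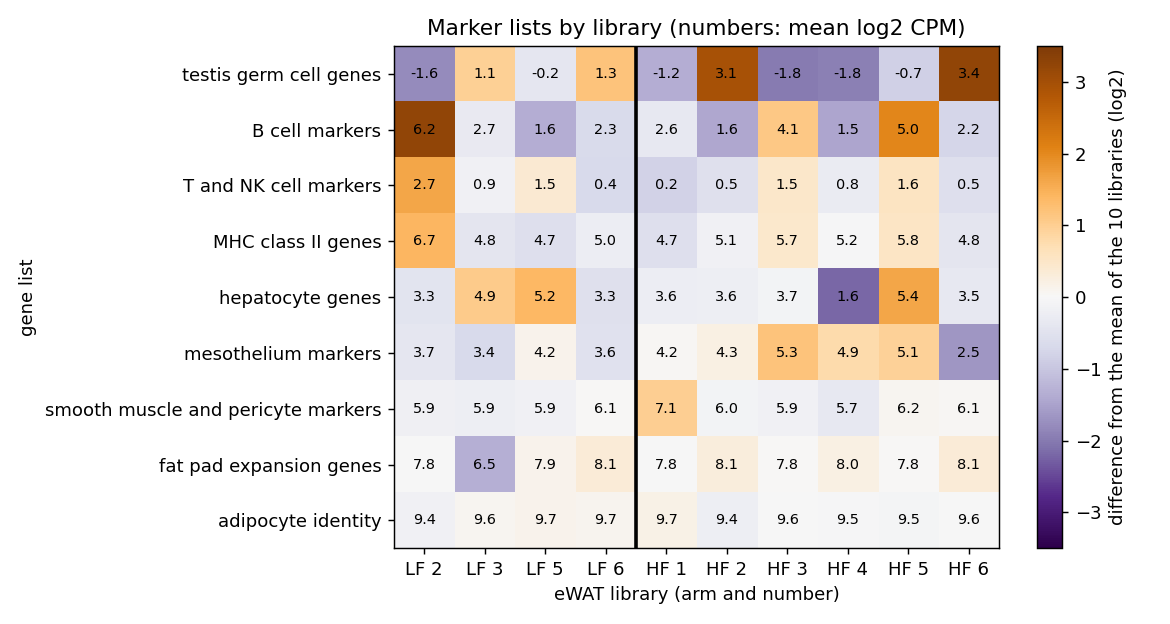
Mean log2 CPM of 9 marker lists (rows) in each of the 10 eWAT libraries (columns, LF left of the line, HF right); the color is the difference from the mean of the 10 libraries. Testis genes are highest in LF 3, LF 6, HF 2 and HF 6, B cell genes in LF 2, HF 5 and HF 3, and the fat cell list lies between 9.4 and 9.7 in every library.

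No gene passed the test over the whole table. Of 15987 genes 0 had an edgeR adjusted p under 0.05 (0%), and the smallest adjusted p was 0.689, shared by 2406 genes. At an unadjusted p under 0.05, 675 genes were lower in HF (4.22%) and 451 were higher (2.82%). Limma voom passed 0 genes. DESeq2 passed 12 genes, 11 of them lower in HF, but gave an adjusted p for only 2659 genes. Over all genes, 8145 had a lower and 7842 a higher fitted mean in HF, with a median difference of -0.004. In 82 genes (0.513%) every HF library lay below every LF library, and in 66 genes (0.413%) every HF library lay above. The differences below are therefore given as values of these 10 libraries. The 12 leading genes of each direction all had an edgeR adjusted p of 0.689, and none of the other genes named passed in edgeR.

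The genes lower in HF that passed in DESeq2 included Gapdh, Slc25a10, Dgat1, Gpd1, Agpat2, Mpc2, Aldoa, Mrap and Bscl2, described below, with DESeq2 adjusted p from 0.00267 (Gapdh) to 0.0484 (Agpat2). The other two were Hsd17b12, of fatty acid elongation, and CT010467.1, both named only after their values were seen. Hsd17b12 stood at 222, 245, 236 and 179.6 CPM in LF and from 156 to 181.5 in HF. CT010467.1 stood at 3122 CPM in LF 6, at 729 to 875 in the other LF libraries and at 549 to 634 in HF.

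The 12 leading genes with lower HF means included Gapdh, Gpd1, Dgat1, Slc25a10 and Mpc2, enzymes and carriers of glucose and lipid metabolism, and also the hormone receptor Pth1r and the surface protein Tpbgl, both among the 4 with the smallest p. Gapdh, the glyceraldehyde 3-phosphate dehydrogenase of glycolysis, lies at chr6:125161715-125166467 on the minus strand (GRCm38). It stood at 401, 524, 381 and 542 CPM in LF and at 298, 319 and 349.9 in HF. All 6 HF libraries lay below all 4 LF libraries, and the HF libraries differed little among themselves. The difference was -0.52 ± 0.11 (edgeR adjusted p = 0.689), and DESeq2 gave an adjusted p of 0.00267. It was -0.28 over the 6 libraries with few testis transcripts and -0.74 over the 4 with more. Leaving out 1 library at a time gave -0.60 to -0.44. The mouse genome holds many processed copies of Gapdh, and how reads shared with them were counted is not given in the sources used here.

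Triglyceride is built on glycerol 3-phosphate, which Gpd1 makes from a product of glycolysis. Gpd1 stood at 1032, 1408, 964 and 1158 CPM in LF and at 731, 758 and 794 in HF, a difference of -0.59 ± 0.15. Every HF library lay below every LF library, and the 6 HF values spanned a narrow range. Agpat2, outside the leading 12, adds the second fatty acid to that backbone, and stood at 360.3, 511, 352 and 592 CPM in LF and at 219, 301 and 309 in HF (-0.68 ± 0.18). Its groups did not overlap either. Dgat1 adds the last fatty acid, and stood at 284, 483, 336 and 448 CPM in LF and at 199, 247 and 294 in HF (-0.66 ± 0.16). Here HF 1, the highest HF library, lay above LF 2, and the other HF libraries lay below every LF library.

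The size of these differences varied with the libraries compared. Between the libraries with more testis transcripts (LF 3 and LF 6 against HF 2 and HF 6), Agpat2 differed by -1.08 and Dgat1 by -1.11. Between the other 6 libraries, Agpat2 differed by -0.28 and Dgat1 by -0.25. Gpd1 differed by -0.75 and -0.39 in the same splits. The direction was the same in both, and the values were smaller without LF 3 and LF 6, the LF libraries with the highest levels of Agpat2 and Dgat1.

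Carriers of the mitochondrial membrane supply these pathways. Slc25a10, the dicarboxylate carrier, stood at 358, 308, 228 and 430.2 CPM in LF and at 165, 201 and 231 in HF (-0.74 ± 0.18). Only HF 4 lay above the lowest LF library. Mpc2 and Mpc1 together form the carrier that admits pyruvate to mitochondria. Mpc2 stood at 166, 176, 144 and 138 CPM in LF and at 111, 119.7 and 137 in HF (-0.37 ± 0.09). Mpc1 stood at 68.3, 102, 74.3 and 65.6 CPM in LF and at 49.3, 59.4 and 63.5 in HF (-0.40 ± 0.13). All HF libraries lay below all LF libraries for both subunits, Mpc1 with a difference of -0.24 without LF 3. Mpc1-ps, listed as a pseudogene copy, differed by -0.44 ± 0.11, and reads shared between it and Mpc1 cannot be told apart here. Slc25a10 differed by -0.84 in the libraries with more testis transcripts and by -0.56 in the others, and Mpc2 by -0.32 and -0.38.

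**Figure D2:**
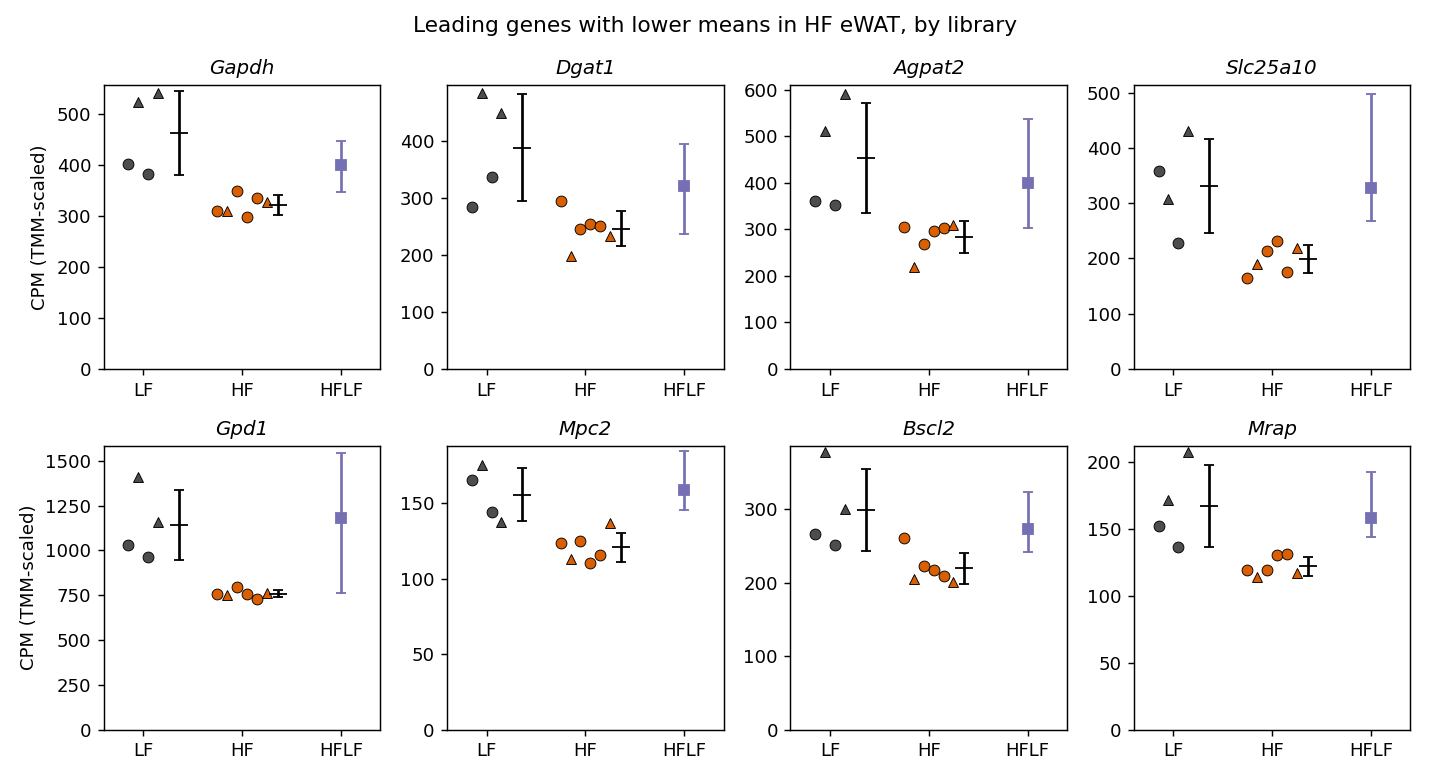
CPM (TMM-scaled) of 8 genes with lower means in HF; each point is 1 library of LF (n = 4, gray) or HF (n = 6, orange), triangles mark the 4 libraries with more testis transcripts, the black bar is the mean ± SD, and the square is the HFLF mean with its lowest and highest library (n = 6). For Gapdh, Agpat2, Gpd1, Mpc2 and Mrap every HF point lies below every LF point, and the triangles of LF lie highest for Dgat1 and Agpat2.

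Other leading genes with lower HF means act at the droplet, at the cell surface and in peroxisomes. Bscl2, the seipin that shapes new lipid droplets, stood at 266, 378, 252 and 300.4 CPM in LF and at 202, 214 and 261 in HF (-0.45 ± 0.11). HF 1, at 260.6 CPM, overlapped the LF range. Mrap, the accessory protein that brings the ACTH receptor to the surface of fat and adrenal cells, stood at 152, 172, 136 and 207 CPM in LF and at 114, 119 and 131 in HF (-0.45 ± 0.11), with no overlap. Pth1r, the receptor for parathyroid hormone, stood at 19.4, 27.4, 23.4 and 30.5 CPM in LF and at 14.9, 16.2 and 19.5 in HF (-0.60 ± 0.14). The highest HF library and LF 2 had nearly the same level. Between the libraries with more testis transcripts, Bscl2 differed by -0.73, Mrap by -0.705 and Pth1r by -0.725. Between the others these genes differed by -0.189, -0.207 and -0.405.

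Pex16, which starts the peroxisome membrane, stood at 119, 149, 119 and 179.8 CPM in LF and at 96.2, 98.8 and 111 in HF (-0.50 ± 0.13), with no overlap. Tpbgl, a surface protein named for its likeness to trophoblast glycoprotein, stood at 13.3, 13.2, 11.6 and 11.5 CPM in LF and at 6.98, 8.65 and 11.3 in HF (-0.51 ± 0.12). Its LF libraries lay close together and above all HF libraries. Fdps, the farnesyl diphosphate synthase of the sterol pathway, stood at 8.51, 7.42, 4.59 and 7.86 CPM in LF and at 3.66, 4.23 and 5.64 in HF (-0.71 ± 0.18). LF 5 lay within the HF range. Between the libraries with more testis transcripts, Pex16 differed by -0.74, Tpbgl by -0.483 and Fdps by -0.731. Between the others these genes differed by -0.231, -0.543 and -0.565.

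Genes with higher HF means were less abundant and of mixed roles. Hist3h2a, which encodes a histone H2A, stood at 5.0, 4.88, 5.17 and 4.36 CPM in LF and at 5.92, 6.60 and 8.5 in HF (0.50 ± 0.12). The groups did not overlap, and the LF libraries lay within less than 1 CPM of each other.

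Ston1, an adaptor of endocytosis, stood at 8.78, 7.84, 9.82 and 8.89 CPM in LF and at 9.83, 13.5 and 17.7 in HF (0.61 ± 0.16), so that HF 1 and LF 5 nearly met. Anxa3, a calcium-dependent membrane-binding annexin, stood at 89.7, 59.7, 92.8 and 89.0 CPM in LF and at 107, 112 and 119.7 in HF (0.45 ± 0.13). LF 3 lay far below the other LF libraries, and the difference was 0.32 without it. Arhgap44, a GTPase-activating protein, stood at 5.40, 4.24, 5.81 and 5.64 CPM in LF and at 6.58, 9.02 and 11.2 in HF (0.72 ± 0.20), with no overlap.

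Secreted and matrix-side proteins made up several of the rest. Fibin, a secreted protein first described in limb buds, stood at 6.55, 3.39, 6.12 and 6.50 CPM in LF and at 7.55, 10.9 and 12.9 in HF (0.88 ± 0.24). Prss23, a secreted serine protease, stood at 53.3, 44.7, 64.2 and 46.4 CPM in LF and at 66.5, 86.8 and 106 in HF (0.75 ± 0.21). Neither gene's groups overlapped. Htra4, another secreted serine protease, stood at 5.27, 1.8, 5.42 and 6.58 CPM in LF and at 7.47, 8.62 and 10.4 in HF (0.87 ± 0.25), and differed by 0.62 without LF 3. Mamdc2, an extracellular protein, stood at 11.8, 9.22, 9.95 and 9.15 CPM in LF and at 11.8, 15.7 and 28.0 in HF (0.74 ± 0.21), with HF 2 far above the others. Its difference was 1.18 in the libraries with more testis transcripts and 0.37 in the others. The glycosyltransferase family gene Glt8d2 (0.59 ± 0.17), the phospholipase A2 receptor Pla2r1 (0.54 ± 0.16) and Kctd9 (0.34 ± 0.10) also led the list, and their groups overlapped.

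**Figure D3:**
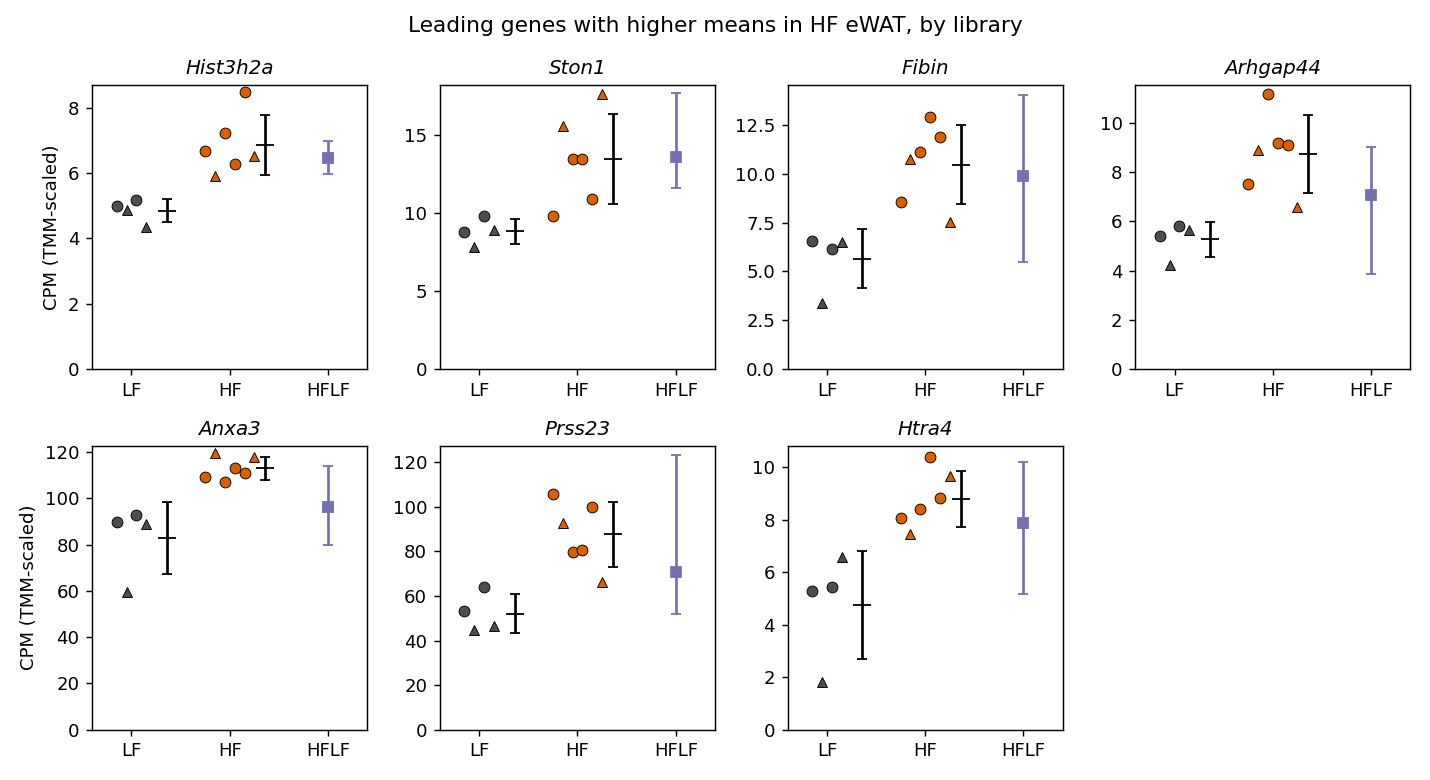
CPM (TMM-scaled) of 7 genes with higher means in HF, drawn as 1 point per library of LF (n = 4, gray) and HF (n = 6, orange), with triangles for the 4 libraries with more testis transcripts, the mean ± SD as a black bar, and the HFLF mean with its range as a square (n = 6). In all 7 genes every HF point lies above every LF point, narrowly for Ston1, and LF 3 lies lowest for Fibin, Anxa3 and Htra4.

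By list, the making of fatty acids and triglyceride was lower in HF in 29 of 31 members, 9 of them at an unadjusted p under 0.05 against 4.22% of all genes, with a median difference of -0.34. None passed in edgeR, and 4 passed in DESeq2 (Agpat2, Dgat1, Gpd1 and Slc25a10). Fasn, the fatty acid synthase, stood at 3429, 6163, 3436 and 1715 CPM in LF and at 1207, 1652 and 3486 in HF (-0.93 ± 0.38). LF 6 lay in the middle of the HF range, LF 3 was highest, and the difference was -0.56 without LF 3. Acaca, which makes the malonyl-CoA that Fasn uses, stood at 239, 542, 352 and 186 CPM in LF and at 122, 179 and 289 in HF (-0.80 ± 0.31), and differed by -0.45 without LF 3. Acly, which makes cytosolic acetyl-CoA, differed by -0.43 ± 0.42 and was as high in HF 3 (739.6 CPM) as in LF 3 (718).

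The desaturase Scd1 differed by -0.07 ± 0.20, with LF 6 lowest and HF 6 highest of the 10 libraries. Srebf1 and Mlxipl encode the SREBP1 and ChREBP factors that activate these enzymes, and differed by -0.29 ± 0.19 and -0.35 ± 0.20. Without LF 3 they differed by -0.18 and -0.20, and Mlxipl differed by 0.01 over the 6 libraries with few testis transcripts. Dgat2, the other enzyme of the last triglyceride step, differed by -0.34 ± 0.17, and by -0.20 without LF 6. The list's mean log2 CPM was 8.10 ± 0.18 in LF (SD, n = 4) and 7.78 ± 0.17 in HF (SD, n = 6), and the highest HF library reached into the LF range. The median of the list was -0.26 without the 4 libraries with more testis transcripts, -0.22 without LF 3 and -0.16 without LF 3, LF 5 and HF 5, the libraries with the most albumin.

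Glycolysis and glucose uptake was lower in 28 of 33 members, with a median of -0.22. Of these, 12 had an unadjusted edgeR p under 0.05, against 4.22% of all genes. Aldoa, the aldolase, stood at 1475, 1674, 1247 and 1587 CPM in LF and at 1098, 1156 and 1244 in HF (-0.37 ± 0.10). The groups did not overlap, although HF 2 nearly reached LF 5. Eno1, the enolase, stood at 333, 349, 312 and 412 CPM in LF and at 233, 280.2 and 312 in HF (-0.34 ± 0.11). Slc2a4, the insulin-responsive glucose transporter GLUT4, stood at 202, 251, 194 and 286 CPM in LF and at 131, 177 and 240.0 in HF (-0.37 ± 0.16). Its difference was -0.83 in the libraries with more testis transcripts and -0.03 in the others. The list's median was -0.06 without the 4 libraries with more testis transcripts and -0.13 without LF 6 alone.

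Cholesterol synthesis was lower in 21 of 24 members, with a median of -0.22. An unadjusted edgeR p under 0.05 was found for 7 of these, against 4.22% of all genes. Tm7sf2, a sterol reductase, stood at 12.2, 13.8, 8.48 and 9.15 CPM in LF and at 5.96, 6.80 and 10.1 in HF (-0.59 ± 0.19). Pmvk, the phosphomevalonate kinase, stood at 50.2, 60.3, 32.5 and 51.2 CPM in LF and at 33.8, 37.6 and 41.2 in HF (-0.39 ± 0.13). LF 5 was the lowest of all libraries for Pmvk, and the other LF libraries lay above every HF library. Unlike the lists above, the list mean differed about as much in the libraries with more testis transcripts (-0.18) as in the others (-0.24), but the difference between these splits was not tested. The median was -0.13 without LF 2.

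Promoters of some of these genes are shown because their lists were lower together. They are the 250 bases before the start of transcription in RefSeq (GRCm38.p6), and 11570 of the genes tested had such an entry. Motifs were searched on both strands and are given in capitals: the E-box CACGTG, a sterol response site TCACNCCAC, the NF-Y box CCAAT, the estrogen-related receptor site TCAAGGTCA and the GC box GGGCGG. Gapdh (chr6:125165774-125166023, minus strand) held none of them. Mpc2 (chr1:165461010-165461259, plus strand) held an NF-Y box and 2 GC boxes. Fasn (chr11:120824548-120824797, minus strand) held 3 NF-Y boxes, of which the last 2 overlap each other on opposite strands. Tm7sf2 (chr19:6067851-6068100, minus strand) held an NF-Y box and 2 GC boxes. The GENCODE spans of Gapdh, Mpc2 and Tm7sf2 begin further upstream than these RefSeq starts. Their stretches therefore lie inside the GENCODE genes, and that of Fasn lies just before its gene.
Gapdh: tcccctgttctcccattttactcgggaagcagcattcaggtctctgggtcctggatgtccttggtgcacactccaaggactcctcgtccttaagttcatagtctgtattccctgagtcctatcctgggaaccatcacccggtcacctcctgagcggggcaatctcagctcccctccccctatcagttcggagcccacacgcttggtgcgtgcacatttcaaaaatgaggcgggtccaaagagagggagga
Mpc2: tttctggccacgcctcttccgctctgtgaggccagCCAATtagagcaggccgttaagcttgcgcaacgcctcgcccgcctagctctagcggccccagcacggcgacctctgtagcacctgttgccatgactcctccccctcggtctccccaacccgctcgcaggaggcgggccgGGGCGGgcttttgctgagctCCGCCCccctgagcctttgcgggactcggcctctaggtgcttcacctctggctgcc
Fasn: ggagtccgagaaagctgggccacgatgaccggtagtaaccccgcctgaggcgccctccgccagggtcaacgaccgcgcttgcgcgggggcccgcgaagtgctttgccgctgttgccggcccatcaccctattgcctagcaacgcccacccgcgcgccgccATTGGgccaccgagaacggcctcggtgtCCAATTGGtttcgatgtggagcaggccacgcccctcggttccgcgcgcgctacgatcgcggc
Tm7sf2: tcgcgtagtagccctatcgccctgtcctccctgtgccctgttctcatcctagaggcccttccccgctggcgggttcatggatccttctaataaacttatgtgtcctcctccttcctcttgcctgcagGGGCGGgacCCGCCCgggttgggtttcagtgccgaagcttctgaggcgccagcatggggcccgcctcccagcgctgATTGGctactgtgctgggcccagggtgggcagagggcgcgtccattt

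A gene with several starts was counted if any of its promoters matched. The NF-Y box was found in 39.78% of all 11570 genes with an entry and the GC box in 61.01%. In the cholesterol list 16 of the 17 genes with an entry held an NF-Y box and 16 held a GC box. In the lipogenesis list 13 of 23 held an NF-Y box, and in the glycolysis list 16 of 32. The GC box was found in 13 of the 23 lipogenesis genes and in 23 of the 32 glycolysis genes. In the list of respiratory complexes II to V, 18 of 31 held an NF-Y box but only 7 a GC box (22.58%). The E-box was found in 9.54% of all genes with an entry. By list it was found in 4 of 17 cholesterol genes, 4 of 23 lipogenesis genes, 4 of 32 glycolysis genes and 3 of 31 genes of complexes II to V. The sterol response site was found in 1.23% of all genes with an entry. By list it was found in 1 of 17 cholesterol genes, 2 of 23 lipogenesis genes and 2 of 32 glycolysis genes. The estrogen-related receptor site was found in 0.31% of all genes with an entry and in 1 of 31 genes of complexes II to V. A match describes these letters only.

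Mitochondrial lists were lower in HF by small amounts, with larger differences between the libraries with more testis transcripts than between the others, a contrast that was not itself tested. Of 36 genes of complex I, 36 had lower means (11 at an unadjusted edgeR p under 0.05, median -0.18). Of 40 genes of complexes II to V, 39 had lower means (18 at that p, median -0.21). Over all genes, 4.22% were lower at that p. Cox5a, a subunit of cytochrome oxidase, stood at 63.5, 103, 62.8 and 77.8 CPM in LF and at 55, 56.3 and 62.2 in HF (-0.41 ± 0.12). LF 3 stood far above the other LF libraries, and the difference was -0.23 without it. Cyc1, the cytochrome c1 of complex III, stood at 154, 251, 169 and 220.0 CPM in LF and at 135, 156 and 175 in HF (-0.37 ± 0.12). Cyc1 differed by -0.76 in the libraries with more testis transcripts and by -0.01 in the others.

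The mean of the complexes II to V list differed by -0.44 in the former and by -0.01 in the latter, and that of complex I by -0.36 and -0.01. Without these 4 libraries the median of the complexes II to V list was -0.01, and with the testis level as a covariate and all libraries it was -0.21. Without the 4, LF was left with LF 2 and LF 5 alone. TCA cycle and pyruvate entry genes were lower in 29 of 31 members, with a median of -0.23 that became 0.00 without the 4 libraries, -0.09 without LF 3 and -0.05 without the 3 libraries with the most albumin. Esrra, the nuclear receptor that drives such genes, stood at 64.2, 95.7, 69.4 and 88.0 CPM in LF and at 55.8, 60.5 and 71.2 in HF (-0.37 ± 0.12).

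Of 8 measured genes of the mitochondrial genome 5 were lower and 3 higher, with a median of -0.02. That median was -0.20 without LF 6 and 0.27 without the 3 libraries with the most albumin. The cytochrome oxidase subunit mt-Co1 differed by -0.07 ± 0.15 and ranged from 6927 to 12200 CPM over the LF libraries alone. Tfam, which packs that genome, differed by -0.01 ± 0.10. Its 6 HF libraries lay between 24.2 and 26.4 CPM, within the LF range of 19.1 to 30.3. Ppargc1a, a coactivator of mitochondrial genes, differed by -0.21 ± 0.38 and was highest in LF 3 (7.95 CPM) and HF 1 (6.55). Its difference was 0.33 without LF 3.

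**Figure D4:**
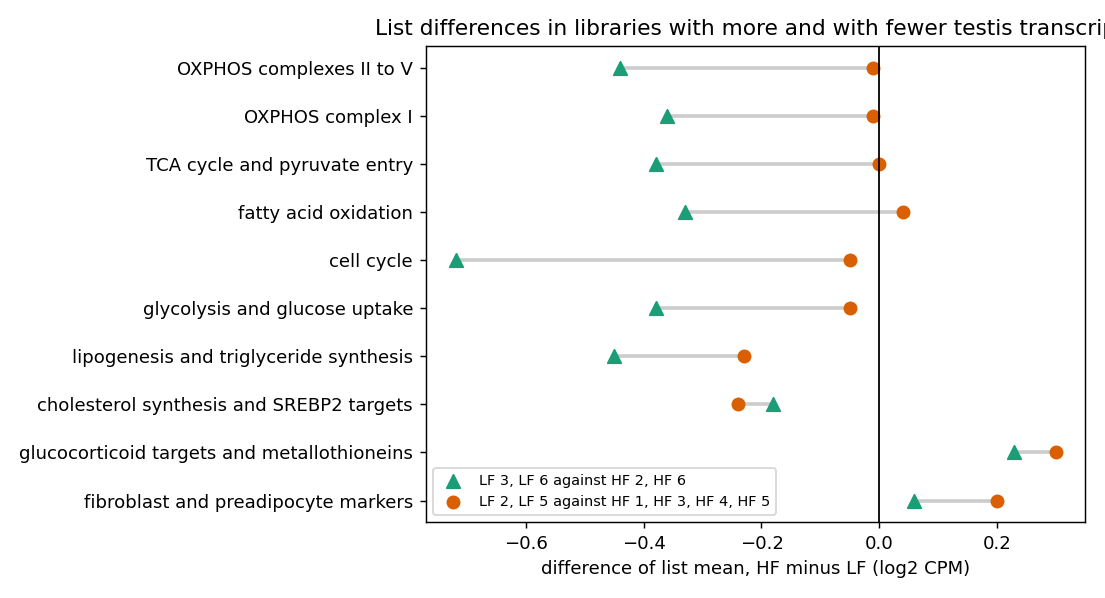
Difference of the mean log2 CPM of 10 gene lists, HF minus LF, between the libraries with more testis transcripts (triangles, 2 LF and 2 HF) and between the others (circles, 2 LF and 4 HF). The mitochondrial, cell cycle and glycolysis lists differ by -0.33 or more in size between the triangles and by -0.05 to 0.04 between the circles, while the cholesterol and glucocorticoid lists differ by like amounts in both.

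Markers that define the fat cell went both ways. Of 30 measured genes of that list 12 were higher and 18 lower (median -0.02). An unadjusted edgeR p under 0.05 was found for 1 and 3 of them, against 2.82% and 4.22% of all genes. The list's mean log2 CPM was 9.61 ± 0.12 in LF (SD, n = 4) and 9.55 ± 0.12 in HF (SD, n = 6). Pparg, the factor that makes a cell a fat cell, stood at 166, 246, 215 and 242 CPM in LF and at 184, 208 and 224 in HF (-0.08 ± 0.12). The fatty acid carrier Fabp4 differed by -0.01 ± 0.12, the droplet protein Cidec by 0.03 ± 0.16 and adiponectin by -0.18 ± 0.16. Leptin, which reports fat mass, stood at 1761, 416, 1112 and 2446 CPM in LF and at 966, 1484 and 2908 in HF (0.29 ± 0.41), and differed by -0.01 without LF 3. The differences of these 5 genes were smaller than, or about as large as, their standard errors. Other members differed more. Gpd1 and Slc2a4, described above, belong to the list too. Cidea, a droplet protein of thermogenic fat cells, stood at 5.07, 13, 6.25 and 6.75 CPM in LF and at 3.19, 4.61 and 6.23 in HF (-0.68 ± 0.26), and differed by -0.32 without LF 3. Ebf1, a transcription factor of fat and B cells, stood at 196, 196, 196 and 153 CPM in LF and at 200.1, 219 and 252 in HF (0.25 ± 0.09), with no overlap.

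Genes for the release of stored fat and for the droplet had mostly lower means in HF, by small amounts. Of 25 lipolysis and droplet genes 18 were lower (median -0.08). An unadjusted edgeR p under 0.05 was found for 3 of these, against 4.22% of all genes. Bscl2, described above, belongs to the list and passed in DESeq2. Without the 4 libraries with more testis transcripts the list's median was -0.03, with 13 genes lower. The first lipase of the sequence, Pnpla2, differed by -0.14 ± 0.16, the hormone-sensitive lipase Lipe by -0.23 ± 0.14 and the droplet coat Plin1 by -0.21 ± 0.15. Hcar1, the lactate receptor that restrains lipolysis, stood at 104, 145, 127 and 131 CPM in LF and at 69.6, 90.5 and 119 in HF (-0.45 ± 0.16). Only the highest HF library, HF 1, lay within the LF range. The receptor Adrb3, through which catecholamines start lipolysis, ranged from 388 to 1226 CPM within HF and differed by -0.47 ± 0.27, or by -0.17 without LF 3.

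Insulin signalling genes were split, 17 higher and 15 lower of 32, with 0 at an unadjusted p under 0.05 in edgeR and a median of 0.03. The insulin receptor Insr stood at 90.0, 128, 138 and 91.9 CPM in LF and at 95.3, 118 and 135 in HF (0.06 ± 0.14), so the arms covered the same range. Its substrate Irs2 stood at 120.2, 76.9, 153 and 138 CPM in LF and at 100.1, 148 and 177 in HF (0.18 ± 0.21). Angptl8, an insulin-induced secreted regulator of lipoprotein lipase, had lower HF means than LF means, at 7.70, 9.22, 4.34 and 5.98 CPM against 2.73, 3.68 and 4.36 (-0.89 ± 0.27). HF 3 and LF 5 had nearly the same level of it.

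The title of the series names the microRNA let-7, whose family members pair with targets through a shared seed. They are shown because the seed decides which messages are searched here, with the seed, bases 2 to 8, in capitals, from RefSeq. All 9 members listed hold the same seed, GAGGUAG. MicroRNAs themselves were not measured in these libraries.
mmu-let-7a-5p: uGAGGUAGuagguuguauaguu
mmu-let-7b-5p: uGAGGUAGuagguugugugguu
mmu-let-7c-5p: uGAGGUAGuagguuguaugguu
mmu-let-7d-5p: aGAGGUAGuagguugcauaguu
mmu-let-7e-5p: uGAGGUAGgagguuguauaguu
mmu-let-7f-5p: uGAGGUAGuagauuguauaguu
mmu-let-7g-5p: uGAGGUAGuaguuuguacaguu
mmu-let-7i-5p: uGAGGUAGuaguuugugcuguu
mmu-miR-98-5p: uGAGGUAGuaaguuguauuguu

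The DNA letters that pair with that seed, CTACCTC, followed by A, were present in the 3′ UTRs of the insulin and growth factor receptors Insr and Igf1r and of Irs2. The matches are shown in capitals with the bases around them, from the GENCODE M21 transcripts.
Igf1r: tttcaaacatttatCTACCTCa
Insr: cttctcagtacagtCTACCTCa
Irs2: aaactaccacagtcCTACCTCa

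Messages with such a match did not have lower means in HF as a group. Of 500 genes with a match followed by A, 283 were higher in HF (56.6%), with a median of 0.03. At an unadjusted edgeR p under 0.05, 25 were higher (5.0%) and 21 lower (4.2%). Over all genes with a 3′ UTR the shares were 2.95% and 4.52%. Of 1436 genes with 1 or more matches 51.9% were higher (median 0.011), and of 177 with 2 or more 48.6% (median -0.002). Of 12469 genes with no match, 48.4% were higher, with a median of -0.01. Genes with a match followed by A had longer 3′ UTRs than those with none, with a median length of 2435 bases against 1045. Whether length bears on the values was not tested. Among 23 listed let-7 targets of insulin and growth signalling 12 were higher and 11 lower (median 0.00), and 0 had an unadjusted p under 0.05 in edgeR. Igf1r stood at 33.7, 27.9, 39.4 and 30.6 CPM in LF and at 34.7, 37.9 and 42.5 in HF (0.21 ± 0.12). Dicer1, which cuts microRNA hairpins and had no match, stood at 39.4, 46.3, 45.5 and 43.0 CPM in LF and at 40.8, 42.9 and 46.6 in HF (-0.02 ± 0.07). Of 20 microRNA processing genes 13 were higher and 7 lower (median 0.04).

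Genes that answer to glucocorticoid hormones and metals leaned higher in HF, 17 of 23, with 3 at an unadjusted p under 0.05 (2.82% of all genes) and a median of 0.30. Mt2, a metallothionein that binds zinc and copper, stood at 20.1, 13.9, 18.3 and 33.9 CPM in LF and at 27.6, 50.6 and 70.8 in HF (1.21 ± 0.36). LF 6 lay above the lowest HF library, and the others of LF lay below all of HF. Errfi1, an inhibitor of the EGF receptor, stood at 29.7, 46.3, 36.4 and 32.1 CPM in LF and at 36.0, 55.8 and 76.0 in HF (0.67 ± 0.26). Hsd11b1, which regenerates active glucocorticoid inside the cell, went the other way, at 147, 133, 243 and 174 CPM in LF and 72.9, 115 and 178 in HF (-0.56 ± 0.20), and differed by -0.35 without LF 5. The list's median was 0.18 without LF 2 and 0.16 without the 3 libraries rich in B cell genes.

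**Figure D5:**
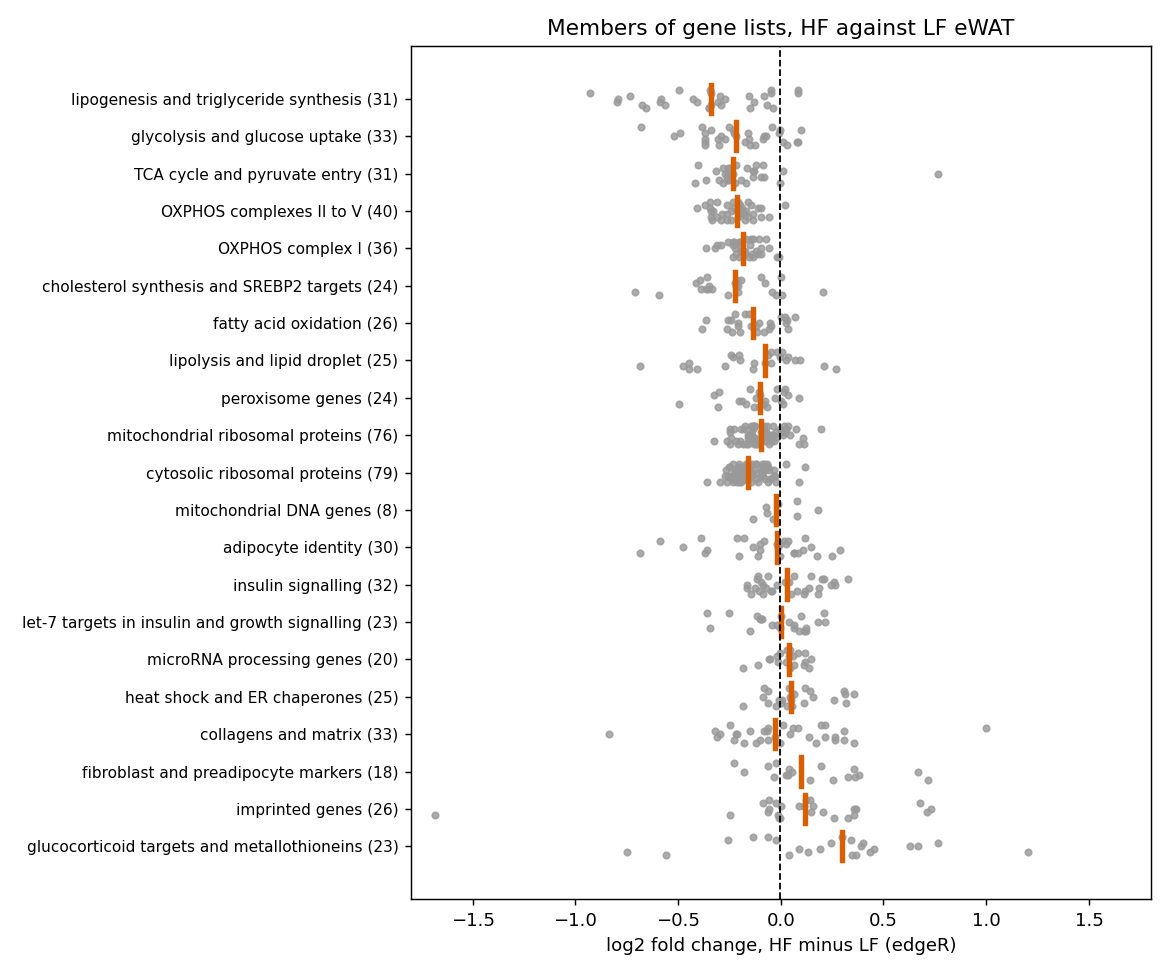
Log2 fold change, HF minus LF, of each measured member (gray points) of 21 gene lists, with the number of members in brackets, the list's median as an orange bar and the median of all genes as a dashed line. Among the lists drawn, which leave out the cell cycle list and the markers of immune, covering and muscle cells, the lipogenesis list has the lowest median (-0.34) and the glucocorticoid list the highest (0.30), and the insulin signalling and let-7 target lists lie around 0.

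Stromal and covering cells showed uneven levels. Of 18 fibroblast and preadipocyte markers 13 were higher and 5 lower (median 0.10), 2 of the former at an unadjusted edgeR p under 0.05. Over all genes, 2.82% were higher at that p. Fmo2, a flavin monooxygenase, stood at 57.8, 66.2, 114 and 88.1 CPM in LF and at 86.2, 132 and 194 in HF (0.72 ± 0.29). Cd34, a surface protein of preadipocytes and endothelium, stood at 146, 128, 155 and 126 CPM in LF and at 146, 173 and 216 in HF (0.36 ± 0.16). Both were highest in HF 3. All 19 mesothelium markers had higher HF means (median 0.89), and 1 had an unadjusted edgeR p under 0.05, against 2.82% of all genes. That median was 0.38 without the 3 libraries rich in B cell genes. The list mean differed by -0.13 between the libraries with more testis transcripts and by 0.88 between the others. Mesothelin (Msln) stood at 16.5, 10.4, 33.4 and 20.7 CPM in LF and at 7.89, 52.8 and 83.1 in HF, so that HF 6 was the lowest of the 10 libraries and HF 3 the highest. The list's mean log2 CPM ranged from 2.47 to 5.32 within HF and from 3.44 to 4.24 within LF.

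Several immune and inflammatory genes and lists changed most when 1 LF library was left out. The secreted phosphoprotein Spp1, made by lipid-laden macrophages, stood at 1.62, 157, 2.42 and 15.8 CPM in LF and at 0.397, 1.93 and 9.11 in HF. Its difference of -3.93 ± 1.08 became -1.13 without LF 3. Hmox1, the heme oxygenase, stood at 51.6, 462, 55.3 and 93.6 CPM in LF and at 45.5, 55.1 and 74.9 in HF, and its difference of -1.53 ± 0.47 became -0.21 without LF 3. T and NK cell markers were lower in 30 of 32 members (median -0.70, and -0.06 without LF 2), and B cell markers in 24 of 25 (median -0.99, and 1.52 without LF 2). Ifi27, an interferon-induced gene of mitochondria, stood at 442, 396, 432 and 498 CPM in LF and at 331, 370.5 and 395 in HF (-0.27 ± 0.09), with no overlap, and differed by -0.31 to -0.21 whichever library was left out. Of 25 interferon-induced genes 12 were higher and 13 lower.

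Genes of the cell cycle had lower means in 36 of 37 members, with a median of -0.47. Of these, 12 had an unadjusted edgeR p under 0.05, against 4.22% of all genes. Cdt1, which licenses replication origins, stood at 8.85, 13.5, 5.49 and 10.4 CPM in LF and at 3.38, 5.24 and 7.24 in HF (-0.81 ± 0.23). Mcm5, a subunit of the replication helicase, stood at 13, 16.5, 9.12 and 18.6 CPM in LF and at 7.74, 9.30 and 10.7 in HF (-0.63 ± 0.19). LF 5 lay within the HF range for both, and LF 3 was highest for Cdt1. The list's median was -0.15 without LF 3 and -0.04 without the 4 libraries with more testis transcripts.

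Imprinted genes, expressed from 1 parental copy, were higher in 15 of 26 members (median 0.12). Plagl1, a zinc finger factor expressed from the paternal copy, stood at 40.3, 39.4, 57.2 and 44.5 CPM in LF and at 51.1, 55.3 and 64.8 in HF (0.33 ± 0.13). LF 5 lay within the HF range and the other LF libraries below it. Mest, also from the paternal copy and linked to fat cell size, stood at 361, 26.4, 383 and 499 CPM in LF and at 124, 334 and 582 in HF (0.11 ± 0.59), and turned to -0.26 without LF 3. H19, a maternally expressed RNA, stood at 2.77, 9.12, 0.383 and 0.427 CPM in LF and at 0.114, 0.795 and 1.83 in HF, and its difference of -1.68 ± 0.74 became -0.33 without LF 3. Values near 0.3 CPM are close to the floor of detection.

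The HFLF arm, which shares the LF libraries as its reference, is given beside these values without a test. Gapdh stood at 346 to 446 CPM in HFLF, with a mean that lay between those of LF and HF. Slc25a10 stood at 268 to 497 CPM in HFLF, above all HF libraries, and Mpc2 at 146 to 185, likewise above all HF libraries. Other genes lower in HF overlapped with HFLF. The lowest HFLF library stood at 236 CPM for Dgat1, 304 for Agpat2, 760 for Gpd1 and 242 for Bscl2, each below the highest HF library. These genes were chosen for low values in HF, so a level above HF in another arm is no separate result. Prss23 stood at 52.0 to 124 CPM and Hist3h2a at 5.98 to 6.98 in HFLF.

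Liver of the same arms, with 4 LF and 5 HF libraries, served to ask whether a difference belonged to eWAT. Of 12735 genes measured in both tissues, 0 passed the edgeR test of the difference between the tissues (0%; smallest adjusted p = 0.956), 621 had an unadjusted p under 0.05 (4.88%), and limma voom passed 0. Gapdh differed by -0.06 ± 0.12 in liver (eWAT minus liver -0.44 ± 0.17, edgeR adjusted p = 0.956). Slc25a10 differed by 0.13 ± 0.15 in liver and by -0.85 ± 0.24 between the tissues. Dgat1 differed by 0.03 ± 0.14 in liver and by -0.67 ± 0.21 between the tissues. Hist3h2a differed by -0.40 ± 0.23 in liver and by 0.91 ± 0.23 between the tissues. Each of these had an edgeR adjusted p of 0.956 for the difference between the tissues, and none was called. The fit took all libraries as independent, although many liver and eWAT titles share a number.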

How the data were processed

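RNA was sequenced from eWAT of F1 males in the LF (n = 4), HF (n = 6) and HFLF (n = 6) arms, and from liver, which entered 1 comparison. Total RNA was sequenced on a NovaSeq instrument, per the labels' protocols. The submitters' processing notes name STAR and the genome build GRCm38.p6. The STAR version, the counting tool, its strand setting and the selection of RNA were not given in the sources used here. Without a stated strand setting, overlapping and antisense genes cannot be told apart. The authors deposited whole-number counts per gene for 15987 genes in eWAT and 13677 in liver, after a filter on low CPM, per the file names. A deposited RPKM table was not used, because the test needs counts.

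Counts were fitted with edgeR 4.0.16 in R 4.3.3 (TMM size factors, robust quasi-likelihood test, 1 term per arm, all 16 eWAT libraries, 13 residual degrees of freedom, biological coefficient of variation 0.219). P-values were adjusted over all genes (Benjamini-Hochberg), with a threshold of 0.05. They measure the spread between these animals, and no source used here gives their litters or fathers. The difference between tissues was tested in 1 fit of all 31 libraries over 12735 genes, with no term for the animal. Many liver and eWAT titles share an arm and a number, so these libraries may come from the same animals. Whether they do is not given in the sources used here, and the effect of such pairing on this test was not tested. Libraries of an arm correlated at 0.948 to 0.985 on log2 CPM (prior count 2), and no pair agreed within sampling noise. Floors of 3 counts cover counting error only. Symbols came from GENCODE M21 and matched 15969 genes.

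The members and the 51 gene lists were chosen with earlier results of these data known. Named genes were the 12 with the smallest p in each direction at a mean of 5 CPM or more whose symbol is not a predicted-gene or clone name, the 3 with the smallest p in each list at 1 CPM or more, of which some were left out (1 leading gene is not reported here), a set of anchor genes, and defining markers of other cell types. Lists were described by counts and medians without a test. Alternatives were DESeq2 1.42.0, which leaves the adjusted p of many genes undefined, limma 3.58.1 voom and RLE size factors. Others were a stricter CPM filter, edgeR's filterByExpr, which removed 0 genes, and the LF and HF libraries alone. The rest were a replicate block, marker levels as covariates, and leaving out libraries. Leaving out the 3 libraries with the highest mean log2 CPM of hepatocyte genes (LF 3, LF 5 and HF 5) was added after the data were seen. Of the fits, only the edgeR fit of HF against LF was tested on simulated counts. The planted differences there were larger than those of the leading genes.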

Additional observations from a re-analysis of the deposited data

Results flagged for a closer look

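Libraries that lay far from the others of their arm were sought by Dixon's criterion over 194 groups of values (48 genes and 49 lists, in LF and in HF). It picked 16 groups, and chance alone picks about 1 in 20, or 9.7 of 194. Causes were not tested.

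HF 1 was high for Bscl2, at 260.6 CPM against 222.8 in the next library, for Pnpla2, at 3715 against 3039, and for Ppargc1a, at 6.551 against 3.571. HF 1 was also high for the smooth muscle and pericyte markers, with a mean log2 CPM of 7.09 against 6.15, and for nerve and Schwann cell genes, at 3.32 against 2.27. HF 2 was high for Fdps (5.645 CPM, next 4.283), for Mamdc2 (28.04 CPM, next 17.7) and for collagens and matrix genes (mean log2 CPM 8.09, next 7.79). HF 3 was high for Acly, at 739.6 CPM against 372.5, and HF 4 for Pex16, at 110.7 CPM against 101.6. HF 6 was low for fibroblast and preadipocyte markers, with a mean log2 CPM of 5.65 against 5.92.

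In LF, LF 3 was low for Fibin, at 3.392 CPM against 6.125, and for Anxa3, at 59.69 CPM against 88.98. LF 2 was high for MHC class II genes, with a mean log2 CPM of 6.66 against 5.0, and low for peroxisome genes, at 6.31 against 6.55. LF 6 was low for interferon-induced genes, at 3.98 against 4.38.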

How the results depend on the processing

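No gene passed under 21 of the 22 alternative settings. Under 1 of these, filterByExpr, 0 genes were removed, so that it repeated the main fit. DESeq2 was the exception, with 12 genes. The 675 lower and 451 higher genes at an unadjusted p under 0.05 became 287 and 155 without the 4 libraries with more testis transcripts, and 1168 and 765 without the 3 libraries with the highest mean log2 CPM of hepatocyte genes. Leaving out 1 library gave 458 to 1102 lower and 336 to 814 higher genes, both highest without LF 5. Deviations from the arm mean correlated between LF and HF libraries of the same number at -0.107, -0.029, -0.017 and 0.35 (numbers 2, 3, 5 and 6). Only number 6 correlated best with its own. These values cannot show whether a number marks a shared litter, cage or day. A replicate block gave 0 passing genes, with 373 lower and 488 higher. Of 49 list medians 13 changed sign without the 4 testis-bearing libraries, 10 without the hepatocyte-rich libraries, 8 under the block, 4 in voom and 0 to 3 under each of the other alternatives that did not leave out a single library. Among medians of 0.2 or more in size, and genes at an unadjusted p under 0.05, directions reversed without the 4 testis-bearing libraries for the medians of the TCA list (0.002), thermogenic genes (0.03) and testis genes (-0.746) and for Pdgfd (-0.021) and Bckdk (0.009). They reversed under the block for smooth muscle (-0.023), B cell (0.498) and neutrophil and mast cell markers (-0.13, and -0.13 in voom), and with the score of the same list as a covariate for B cell (0.068) and testis genes (-0.336). Leaving out 1 library gave medians from -0.089 (without HF 1) to 0.446 for smooth muscle, from -1.912 to 1.521 (without LF 2) for B cells and from -0.525 to 0.011 (without LF 6) for red blood cell genes. Such a median also reversed without the hepatocyte-rich libraries for hepatocyte genes (0.049). The causes were not tested. With 4 LF libraries and totals from 9278083 counts, differences of rare genes were not detectable at this depth unless large.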

Other observations

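Peroxisome genes, antioxidant genes and both kinds of ribosomal protein genes also had mostly lower means in HF, by small amounts. Of 24 peroxisome genes 19 were lower (median -0.10, 3 at an unadjusted p under 0.05 in edgeR). Of 30 antioxidant and glutathione genes 22 were lower (median -0.095, 1 at that p). Of 79 cytosolic ribosomal protein genes 76 were lower (median -0.16, 6 at that p), and of 76 mitochondrial ones 63 (median -0.09, 7 at that p). Over all genes, 4.22% were lower at that p. Without the 4 libraries with more testis transcripts the list medians were -0.04 for peroxisome genes (16 of 24 lower) and -0.011 for antioxidant genes (17 of 30). They were -0.03 for cytosolic (59 of 79) and -0.02 for mitochondrial ribosomal proteins (44 of 76). Mrpl12, a protein of the mitochondrial ribosome, stood at 60.4, 66.0, 59.4 and 68.9 CPM in LF 2, LF 3, LF 5 and LF 6 and from 46.8 to 55.7 in HF, with no overlap (-0.26 ± 0.08, edgeR adjusted p = 0.689). Chaperones of the heat shock and ER response were higher in 18 of 25 members (median 0.05), and Hsp90aa1 stood at 188, 141, 154 and 117 CPM in LF and from 159.8 to 237 in HF (0.36 ± 0.13).

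Of 22 immediate early genes 16 were higher in HF (median 0.12). Of these, 1 had an unadjusted edgeR p under 0.05, against 2.82% of all genes. Fosl2, a subunit of the AP-1 factor, stood at 47.2, 38.0, 47.3 and 35.3 CPM in LF and had a median of 60.0 in HF (0.48 ± 0.17). Circadian clock genes were higher in 7 and lower in 14 of 21 members (median -0.05), with 0 at an unadjusted p under 0.05. The thermogenic list was lower in 13 of 17 members (median -0.20), and its member Gatm, of creatine synthesis, stood at 21.8, 24.8, 9.06 and 9.40 CPM in LF and from 8.92 to 11.2 in HF, so that LF 2 and LF 3 alone stood above the other libraries.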
